A study of Mus musculus with 29 samples.

Results

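Potassium channel genes were taken from the RNA-seq table by name, as every gene whose symbol is Kcn followed by a letter code and, in nearly every case, a number (Kcnrg has none). This gave 93 of 24062 genes, in 8 families fixed for this description, among them pore-forming subunits of voltage-gated, calcium-activated, inwardly rectifying and tandem-pore channels and the auxiliary subunits that travel with them. Expression was measured in 15 RNA-seq libraries from mouse retina, 3 from each of 5 sorted populations, and chromatin accessibility in 12 ATAC-seq libraries, 2 from each of 6. All bipolar cells (pan-BC) came from mice heterozygous for GFP placed in the Otx2 gene (Otx2-GFP+/-), aged 44 to 47 postnatal days for RNA-seq. ON bipolar cells (ON-BC) and OFF bipolar cells (OFF-BC) came from Otx2-GFP+/-; Grm6-YFP+/+ mice of 42 to 48 days, in which the Grm6 promoter drives YFP in ON cells. OFF-BC were sorted a second time, and cells of intermediate YFP were collected in neither gate. Rods came from Nrl-eGFP mice, and the population called blue cones came from Nrl-eGFP;NrlKO mice, whose photoreceptors lack the rod factor NRL and stand in for Opn1sw cones. Both were 56 days old and had been sequenced for previous work of the laboratory, and in a comparison of bipolar cells with photoreceptors the cell class, the age and the study differ together and cannot be told apart. The ATAC-seq bipolar libraries were from mice of 42 to 46 days carrying both transgenes per the labels. For pan-BC in that assay, the study's supplement disagrees with the labels on whether the mice carried Grm6-YFP. Green cones (Opn1mw-GFP), from mice of 56 days, were added in ATAC-seq only.

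Potassium channels let potassium leave or enter the cell and so set the resting potential, shape the light response and limit how long a depolarisation lasts. In photoreceptors the modifier Kcnv2, which is silent alone and acts only inside channels formed with other subunits, shapes a current of the inner segment, and loss of Kcnv2 in people causes a cone dystrophy with a supernormal rod response. Bipolar cells signal with graded potentials, and their voltage-gated and calcium-activated potassium currents shape release at the ribbon synapse.

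Depth was 12329548 to 26266746 reads per RNA-seq library (median 15569580) and 4176776 to 12345845 per ATAC-seq library (median 6648830). Levels are given as normalized counts, the authors' reads divided by 1 size factor per library. A difference was called when limma's treat, a test against a log2 difference of 1 over all genes tested, gave an adjusted p below 0.05. Nothing in the labels says that the libraries came from separate animals, so the p-values measure the spread between libraries. Defining markers were present in the populations named for them: the summed count of 5 ON markers was 98624 to 111272 in ON-BC libraries but 5802 to 10152 in OFF-BC, and that of 4 OFF markers was 31146 to 52408 in OFF-BC libraries but 395 to 629 in ON-BC. Photoreceptor transcripts were also counted in the bipolar libraries. Gnat1, the rod transducin subunit, stood at 1.02% of its rod level in pan-BC, while ON-BC held 0.865% and OFF-BC 0.0752%, and Opn1sw, the blue cone pigment, at 3.31% of its blue cone level in pan-BC and 0.0557% in ON-BC. OFF-BC replicate 3 stood apart, with 55813 counts of Opn1sw against 4477 and 4314 in OFF-BC replicates 1 and 2. It also held more of each of the 5 ON markers than the other OFF-BC libraries. Isl1 stood at 1329 in it against 343 and 162, and Grm6 at 593 against 145 and 64.9.

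Of the 93 genes, 54 passed the filter on low counts and were tested. Another 10 had no read in any of the 15 libraries, namely Kcna10, Kcne1, Kcng3, Kcnj4, Kcnk5, Kcnk9, Kcnk12, Kcnk16, Kcnq3 and Kcnq5, and the other 29 untested genes reached at most 17 normalized counts in any library (Kcnj3, in a blue cone library). Bipolar cells held the widest set: 51 members had a mean of at least 10 normalized counts in pan-BC, where ON-BC had 47 and OFF-BC 50, against 29 in blue cones and 22 in rods. How many of all genes reached this level in each population was not counted, so the wider set cannot be called particular to potassium channel genes. The summed count of all members spanned less than these numbers of members. Pan-BC libraries held 66443 to 68863, ON-BC libraries 54579 to 59378 and OFF-BC libraries 45057 to 47124, while rod libraries held 45707 to 54731 and blue cone libraries 39937 to 46758.

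Per kilobase of exon, rods concentrated this signal in a few genes. The leading 6 members carried 98.0% of the summed level per kilobase in rods and 93.2% in blue cones, against 71.0% in pan-BC and 57.4% in OFF-BC. In rods Kcnv2 led (4883 ± 467 per kilobase, SD, n = 3), with Kcnj14 next (1972 ± 170), Kcnab2 at 792 ± 154 and Kcne2 at 63.5 ± 16.1. In blue cones Kcne2 led at 5133 ± 1151 per kilobase, followed by Kcnab2 (2285 ± 324) and Kcnv2 (2079 ± 29.8). The spreads of Kcnab2 and Kcnv2 in blue cones overlap, so those neighbours did not differ beyond their spread. In pan-BC the order was Kcne2 (3564 ± 390 per kilobase), the calcium-activated BK subunit Kcnma1 (2485 ± 90.8), the beta subunit Kcnab2 (1775 ± 56.5), the voltage-gated Kcna5 (1512 ± 200), the acid-sensitive leak channel Kcnk3 (1428 ± 82.5) and the G protein-gated rectifier Kcnj9 (954 ± 19.1), with Kcna5 and Kcnk3 within their spread. ON-BC had the same leading pair, Kcne2 (3234 ± 242 per kilobase) and Kcnma1 (2037 ± 208). OFF-BC were led by the Kv4 partner Kcnip4 instead (1570 ± 233 per kilobase), with Kcnab2 (1350 ± 26.5) next and the spreads overlapping. On GRCm38.p6, Kcne2 lies at chr16:92292389-92298133, Kcnv2 at chr19:27322061-27337179, Kcnma1 at chr14:23292288-24005110 and Kcnip4 at chr5:48389503-49525122.

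**Figure D1:**
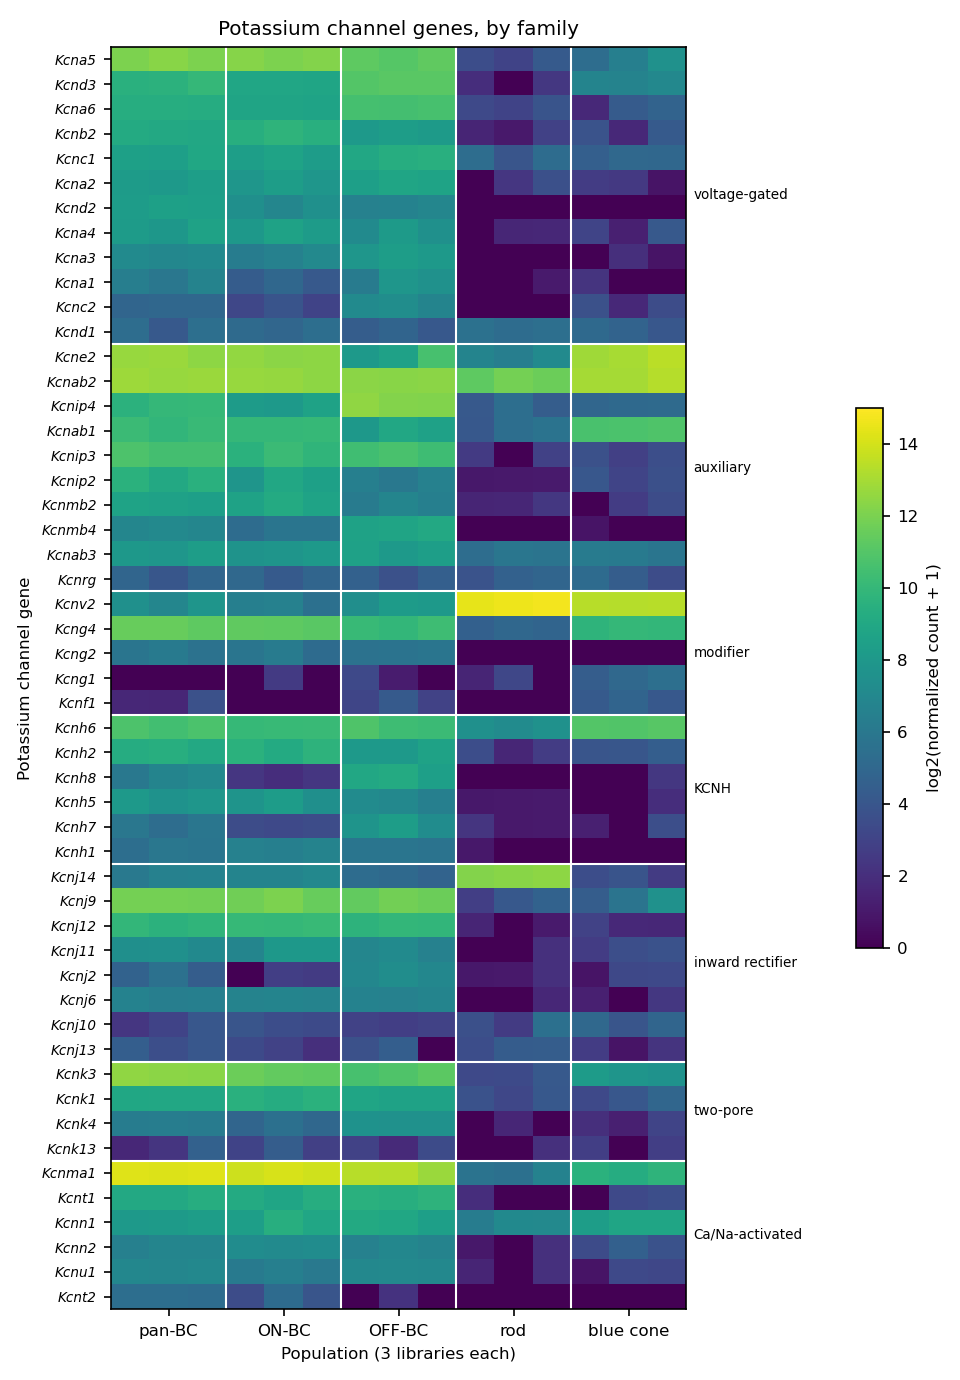
Log2 of the normalized count plus 1 for 51 of the 54 tested members (rows, by family) in the 15 libraries (columns, 3 per population). The 3 bipolar populations are filled for nearly every row, while the rod columns are dark except for Kcnv2, Kcnj14, Kcnab2 and a few weaker genes.

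ON bipolar cells depolarise and OFF bipolar cells hyperpolarise in light, and the comparison between them asks which channel genes differ between the gates. The ON-BC gate takes in rod bipolar cells, which the study describes as the majority of it, beside ON cone bipolar cells, while OFF bipolar cells are cone bipolar cells, so response polarity and rod or cone type cannot be told apart. Sums of markers of other cells differed between the gates too. The 7 Muller glia markers summed to 2813 to 3816 counts in OFF-BC but 1427 to 1682 in ON-BC. Much of this gap was Sox9 (means 1400 and 25.1), and Apoe, Rlbp1, Dkk3 and Aqp4 had higher means in ON-BC. The 6 amacrine markers summed to 913 to 1085 in OFF-BC but 317 to 451 in ON-BC. Slc6a9 led them (means 566 and 159) but was higher still in rods (2271), and Gad1 had the higher mean in ON-BC. The 6 ganglion cell markers ran the other way, at 41.35 to 78.35 in OFF-BC and 140.3 to 245.9 in ON-BC. The part of these cells in the differences was not tested. Between them 10 members were called, with 3 higher in ON-BC and the other 7 in OFF-BC, which is 18.5% of the 54 tested against 6.55% of all genes tested (2.95% with the higher level in ON-BC, 3.60% in OFF-BC). Of them 4 are auxiliary subunits, 2 in each direction, while no gene of the tandem-pore family was called. The median log2 difference, ON-BC minus OFF-BC, was 0.21 over the tested members and -0.02 over all genes. The members called in OFF-BC include Kv3, EAG-type and Kir2 pore-forming genes, and those in ON-BC include only 1 pore-forming gene, Kcnt2.

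Kcne2 encodes a small subunit with a single membrane span that alters the gating of several voltage-gated channels. Its count was 6194, 5351 and 5639 in the ON-BC libraries and 270.5, 386 and 1585 in the OFF-BC libraries. All ON-BC libraries were above all OFF-BC libraries, and the highest OFF-BC value was in replicate 3. Among the OFF-BC libraries, that one had the most Opn1sw and the most of each ON marker. The log2 difference was 3.38 ± 0.42 (SE; limma adjusted p = 0.00053), and without OFF-BC replicate 3 it was 4.14 (limma adjusted p = 3.66e-08). Kcne2 was itself abundant in blue cones, as in ON-BC. The parts of cone material and of ON bipolar material in its OFF-BC level were not tested.

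Kcnip2 encodes a calcium-binding protein that assembles with Kv4 channels. It was counted at 221, 518 and 360.1 in ON-BC and at 87.2, 62.5 and 93.8 in OFF-BC, with no overlap. The log2 difference of 2.1 ± 0.33 (limma adjusted p = 0.0344) was lost in 6 of the 16 other settings, among them the fit without ON-BC replicate 2 (1.81; limma adjusted p = 0.226). Kcnt2, a sodium-activated channel, was low in ON-BC (10.3, 36.2 and 14.4) and had 3 reads in OFF-BC, all in replicate 2, which gives a ratio of 18.1 with an exact 95% counting interval of 5.90 to 90.0 (log2 3.49 ± 0.59; limma adjusted p = 0.00673). The Kcnt2 call was lost with DESeq2 (adjusted p = 0.068), with 5 added before the logarithm (limma adjusted p = 0.0717) and in a fit of these 2 populations only (limma adjusted p = 0.0639).

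Kcnip4, another Kv4 partner, moved the other way from Kcnip2. The OFF-BC libraries held 5918, 4678 and 4569.5 counts and the ON-BC libraries 297, 275 and 397, a log2 difference of -3.97 ± 0.25 (limma adjusted p = 2.34e-07). Pan-BC lay between them at 785, 1021 and 1040.0. Kcnmb4, the BK beta subunit typical of neurons, was counted at 404, 425 and 519.7 in OFF-BC and at 39.2, 56.8 and 56.4 in ON-BC (log2 -3.13 ± 0.33; limma adjusted p = 0.000136). Of the exon bases of Kcnmb4, 33.6% are shared with the antisense gene Kcnmb4os2 and 28.5% with Kcnmb4os1, and since the library kit does not mark strand, reads of the strands cannot be told apart there. Kcnmb4os1 had a mean of 8.77 counts in OFF-BC and 2.04 in ON-BC.

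The 5 remaining OFF-BC genes encode pore-forming subunits. Kcnh8, of the ELK group, showed the widest gap, with 506, 567 and 349 counts in OFF-BC and 4.13, 2.94 and 4.10 in ON-BC (log2 -6.63 ± 0.55; limma adjusted p = 1.13e-06). It was also the 1 member called between pan-BC and ON-BC (1.06% of all genes were called there), higher in pan-BC by 4.39 ± 0.55 on the log2 scale (limma adjusted p = 0.00117). Kcnh7, an ERG-type channel, was counted at 218, 324 and 156 in OFF-BC and at 10.3, 8.82 and 10.3 in ON-BC (log2 -4.37 ± 0.66; limma adjusted p = 0.00129).

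Kcnj2, the classical strong inward rectifier Kir2.1, had 119.6, 165 and 124 counts in OFF-BC and 0, 5.88 and 5.13 in ON-BC (log2 -5.28 ± 0.73; limma adjusted p = 0.000386). Kcnc2, a Kv3 channel of fast-firing neurons, had 143, 166 and 108 in OFF-BC and 8.26, 13.7 and 7.18 in ON-BC (log2 -3.73 ± 0.47; limma adjusted p = 0.000413). Kcnf1, a silent modifier subunit, was scarce, with 7.82, 18 and 6.62 counts in OFF-BC and no read in ON-BC. Against a floor of 3 reads over the ON-BC libraries it was at least 10.5-fold higher in OFF-BC (limma adjusted p = 0.00602), a call that was lost with 5 added before the logarithm (limma adjusted p = 0.56).

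**Figure D2:**
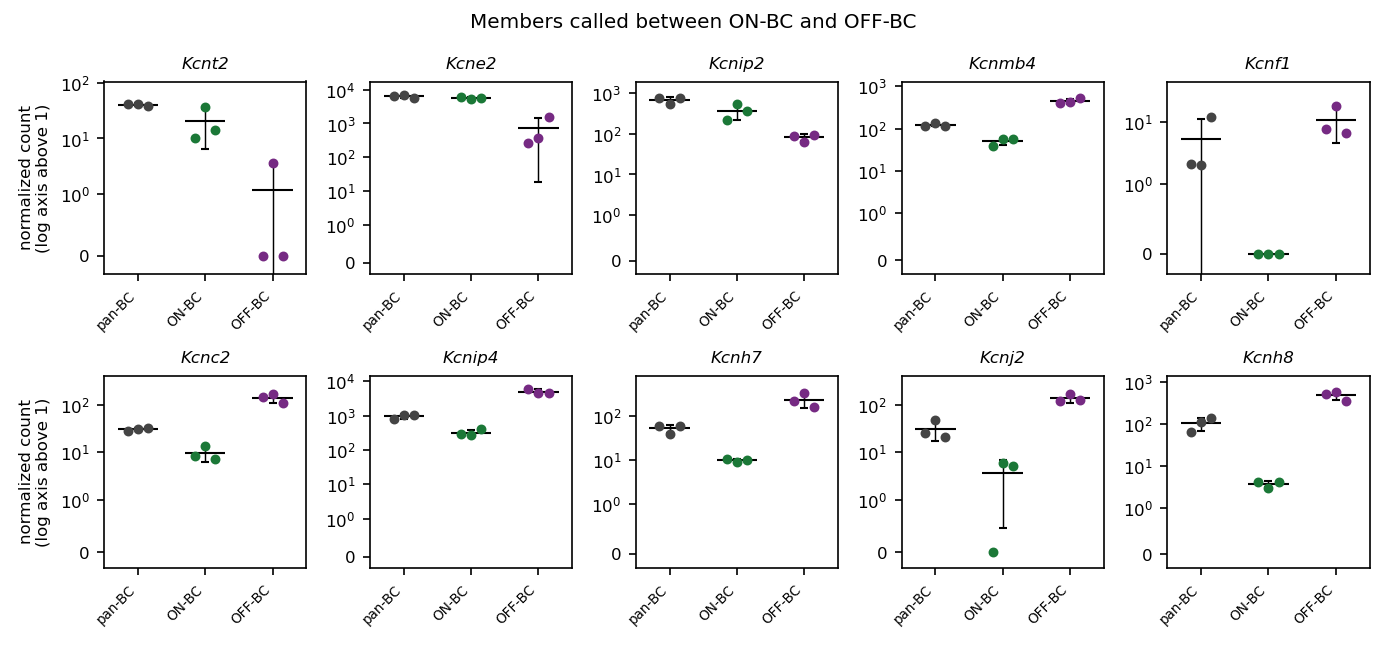
Normalized counts of the 10 members called between ON-BC and OFF-BC, on an axis that is logarithmic above 1, in pan-BC, ON-BC and OFF-BC. Points are libraries, short lines are means and bars are SD (n = 3), and in no panel do the ON-BC and OFF-BC points overlap.

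Many other tested members had ON-BC and OFF-BC libraries that did not overlap but were not called by limma. Absence of overlap was not particular to large differences, since it also held at Kcnab2 (log2 0.216) and Kcnj12 (log2 0.205). How often it held over all genes was not counted. Kcnd3, the Kv4.3 pore subunit, which shares 2.2% of its exon bases with the antisense gene Kcnd3os, was counted at 466, 464 and 459 in ON-BC and at 2022, 2310.3 and 2252 in OFF-BC (log2 -2.24 ± 0.40; limma adjusted p = 0.0512), and it was called by edgeR on the recovered reads (adjusted p = 1.21e-06) and by DESeq2 (adjusted p = 1.69e-15). Kcnk4, a mechanosensitive leak channel, was counted at 28.9, 46.0 and 31.8 in ON-BC and at 203, 193 and 192 in OFF-BC (log2 -2.46 ± 0.47; limma adjusted p = 0.0515). The ON-BC libraries also lay below all OFF-BC libraries for the Kv1 genes Kcna1 (19.6, 31.4 and 17.4 beside 76.0, 239 and 191; limma adjusted p = 0.0714) and Kcna6 (431, 439 and 419.6 beside 1509, 1464 and 1568; limma adjusted p = 0.628). For the BK subunit Kcnmb2 they lay above them, at 396, 586 and 408 beside 74.9, 110.5 and 89.4 (limma adjusted p = 0.239). edgeR's test of the same hypothesis called these 5 genes among 17 members in all. Kcnj14 was at 113 ± 11.1 in ON-BC and 32.7 ± 5.82 in OFF-BC (SD, n = 3; limma adjusted p = 0.0881), and Kcnv2 gave an adjusted p of 0.102. Kcnma1, the pore subunit that Kcnmb2 and Kcnmb4 join, was counted at 14648, 17769 and 15422 in ON-BC and at 10633, 10129 and 6832 in OFF-BC, without a call.

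Between pan-BC and OFF-BC 4 members were called (3.37% of all genes), namely Kcne2, Kcnip2 and Kcnt2 higher in pan-BC and Kcnip4 higher in OFF-BC. The same pan-BC libraries enter every comparison with pan-BC. In all, 6 members were higher in all 3 pan-BC libraries than in every ON-BC and OFF-BC library, where 3.71% of all tested genes showed this order. Kcnk3 was among them, with 5802, 5284 and 5236 in pan-BC, beside 3179, 2649.5 and 2454 in ON-BC and 1587, 1832 and 2418 in the OFF-BC libraries. Kcnd2, the Kv4.2 pore subunit, was 2.16 times its ON-BC mean and 3.30 times its OFF-BC mean in pan-BC. The others were Kcnab2, Kcnip2, Kcnma1 and Kcnt2.

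Against rods, the bipolar cells showed a broad excess of channel transcripts. In pan-BC 43 members were higher and 3 lower, 85.2% of those tested, beside 43.6% of all genes (27.8% higher in pan-BC and 15.8% higher in rods). By family, 12 of 14 tested voltage-gated genes, all 6 KCNH genes, 5 of 6 calcium- or sodium-activated genes, 8 of 10 auxiliary genes, 5 of 8 inward rectifiers, 3 of 4 tandem-pore genes and 3 of 5 modifiers were higher in pan-BC. The median log2 difference of the tested members was 5.79, and 0.21 over all genes. In these bulk samples fewer cells that express a gene and less RNA per cell cannot be told apart.

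Many of these genes were close to absent from rods. Kcnj12 (Kir2.2) was counted at 974, 807 and 905 in pan-BC and had 3 reads in rods, a ratio of 873 with an exact 95% counting interval of 299 to 4238. Kcnd2 had 313, 362 and 354 counts in pan-BC and no read in rods or blue cones, at least 335-fold higher than the floor in rods and 457-fold higher than that in blue cones. Kcnk3 stood at 8.73, 9.22 and 17.3 in rods, 8.80 ± 0.22 lower on the log2 scale than in pan-BC (limma adjusted p = 1.41e-14). Of the exon bases of Kcnk3, 6.0% are shared with the antisense gene Gm9899. In every comparison of Kcnk3, reads of the strands cannot be told apart there. Gm9899 had means of 223 counts in pan-BC, 132 in blue cones and 2.35 in rods.

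The calcium sensor Kcnip3, which also acts as the transcriptional repressor DREAM, was counted at 1768, 1455 and 1487 in pan-BC and at 4.85, 0 and 6.48 in rods (log2 8.79 ± 0.51; limma adjusted p = 3.71e-10). Kcna5 was counted at 4246, 5234 and 4150.2 in pan-BC and at 10.7, 7.17 and 18.4 in rods (log2 8.53 ± 0.39; limma adjusted p = 1.5e-11). Kcnt1, the sodium-activated Slack channel, was counted at 528, 522 and 657 in pan-BC and had 3 reads in rods, a ratio of 551 with an exact 95% counting interval of 188 to 2676. Kcnma1 was the most abundant member of pan-BC by count, at 19909, 18635 and 19816, and stood at 51.4, 46.1 and 99.4 in rods (log2 8.27 ± 0.22; limma adjusted p = 3.63e-14).

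The exceptions included the leading genes of the rod level per kilobase, Kcnv2 and Kcnj14. Kcnv2 had 22184, 25370.4 and 26822 counts in rods and 183, 116 and 222 in pan-BC (log2 -7.20 ± 0.27; limma adjusted p = 1.64e-12). Kcnj14, the inward rectifier Kir2.4, had 4747, 5225 and 5641 in rods and 67.0, 95.8 and 99.1 in pan-BC (log2 -5.90 ± 0.28; limma adjusted p = 5.31e-11).

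The pan-BC level of Kcnv2 was 0.7% of its rod level and that of Kcnj14 1.68%, while 5 rod markers stood between 0.397% (Pde6b) and 1.02% (Gnat1) of theirs. In OFF-BC Kcnv2 reached 1.0% of its rod level and 2.35% of its blue cone level, with the same rod markers at 0.0485% (Nr2e3) to 0.145% (Nrl) of their rod level and the cone markers at 0.505% (Pde6c) to 10.5% (Gnat2) of their blue cone level. How much of these counts came from photoreceptor material was not tested.

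Set against blue cones, which share the pan-BC libraries with the comparison above, 37 members were higher in pan-BC and 2 lower. That is 72.2% of the tested members, beside 36.3% of all genes (22.7% higher in pan-BC and 13.7% higher in blue cones), with a median log2 difference of 4.50 over the members and 0.16 over all genes. Kcnv2 was counted at 10642, 10381 and 10645 in blue cones, 5.97 ± 0.27 above pan-BC on the log2 scale (limma adjusted p = 8.45e-11). Kcng1, a silent modifier subunit like Kcnv2, had 20.3, 32.6 and 44.4 counts in blue cones and no read in pan-BC, at least 29.8-fold higher in blue cones (limma adjusted p = 0.000807).

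The genes furthest above blue cones were Kcnd2, Kcnj12, Kcnip3, Kcnh5, Kcnt1 and Kcnmb4. Kcnj12 stood at 6.77, 2.28 and 2.22 in blue cones (log2 7.69 ± 0.36; limma adjusted p = 8.78e-11), and Kcnip3 at 12, 6.07 and 11.1 (log2 7.24 ± 0.51; limma adjusted p = 1.34e-08). Kcnh5, an EAG channel, had 264, 203 and 239 counts in pan-BC and 0, 0 and 2.96 in blue cones (log2 7.21 ± 0.45; limma adjusted p = 3.02e-09). Kcnt1 was at 0, 9.11 and 11.1 in blue cones (log2 6.83 ± 0.69; limma adjusted p = 1.21e-06). Kcnmb4 had 1 read in blue cones, which puts the ratio of pan-BC at 490.2 with an exact 95% counting interval of 87.4 to 19420.

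In pan-BC 7 members exceeded rods by the test but were not called against blue cones, among them Kcne2, Kcnab1, Kcnh6, Kcnc2, Kcnf1 and Kcnj2. Kcne2, Kcnab1 and Kcnh6 had log2 differences from blue cones between -0.68 and -0.33, while Kcnc2 (30.6 ± 1.65 in pan-BC, 8.22 ± 5.22 in blue cones; limma adjusted p = 0.0637) and Kcnj2 (31.2 ± 14.2 beside 5.99 ± 4.55; limma adjusted p = 0.0788) were nearer the threshold on the pan-BC side and Kcnf1 (5.46 ± 5.87 beside 20.8 ± 6.36; limma adjusted p = 0.0969) on the other. Kcnj14 lay below its rod level in pan-BC, yet above its blue cone level (87.3 ± 17.7 in pan-BC and 9.79 ± 4.29 in blue cones, SD, n = 3; log2 3.10 ± 0.28; limma adjusted p = 3.89e-06). That excess is removed by the study's rule for carried-over transcripts, since Kcnj14 was far more abundant in rods, and so is the small excess of Kcnf1 over rods (log2 2.32; limma adjusted p = 0.0398), which was called in 10 of 16 other settings.

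Rods and blue cones were compared directly to show which of these genes differ between these populations. The blue cones are NrlKO photoreceptors and the rods are not, so photoreceptor type and the loss of NRL cannot be told apart. In all 17 members were called, 2 higher in rods and 15 higher in blue cones. This is 31.5% of those tested, beside 15.9% of all genes (4.63% higher in rods and 11.3% higher in blue cones), and the median log2 difference, rod minus blue cone, was -1.13 over the members and -0.01 over all genes.

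Kcnj14 had the widest rod excess, its blue cone counts being 10.5, 13.7 and 5.18 (log2 9.0 ± 0.28; limma adjusted p = 2.86e-13). Kcnv2 was not called in the test against a log2 difference of 1 (log2 1.23 ± 0.27). All its rod libraries were still above all its blue cone libraries (means 24792 and 10556). The edgeR F test with a 2-fold minimum called it (adjusted p = 0.000124).

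In the other direction Kcne2 was counted at 7532, 8341 and 11398 in blue cones and at 109, 86.0 and 143 in rods (log2 -6.33 ± 0.42; limma adjusted p = 1.47e-08). Kcnab1, a cytoplasmic beta subunit of Kv1 channels, stood at 1631, 1738 and 1876 in blue cones and at 16.5, 42.0 and 50.8 in rods (log2 -5.69 ± 0.31; limma adjusted p = 1.2e-09). Kcng4, a silent modifier subunit, stood at 854, 1026 and 961 in blue cones and at 23.3, 31.8 and 28.1 in rods (log2 -5.05 ± 0.13; limma adjusted p = 1.68e-13), and was higher still in pan-BC, at 2928, 2978 and 2523.

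Kcnd3 was counted at 106, 105 and 129 in blue cones and at 2.91, 0 and 4.32 in rods (log2 -5.37 ± 0.40; limma adjusted p = 1.03e-07). Kcnf1 had no read in rods and 18.1, 28.1 and 16.3 counts in blue cones, at least 20.3-fold more. Kcnk3 was counted at 300.1, 226 and 199 in blue cones (log2 -4.29 ± 0.22; limma adjusted p = 1.45e-09) and Kcnma1 at 779.9, 636 and 854 (log2 -3.58 ± 0.22; limma adjusted p = 5.12e-08). Kcnh6, an ERG-type channel, was called too, at 1994, 1987 and 2183 in blue cones and 187, 152 and 191 in rods (log2 -3.54 ± 0.15; limma adjusted p = 2.74e-10).

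**Figure D3:**
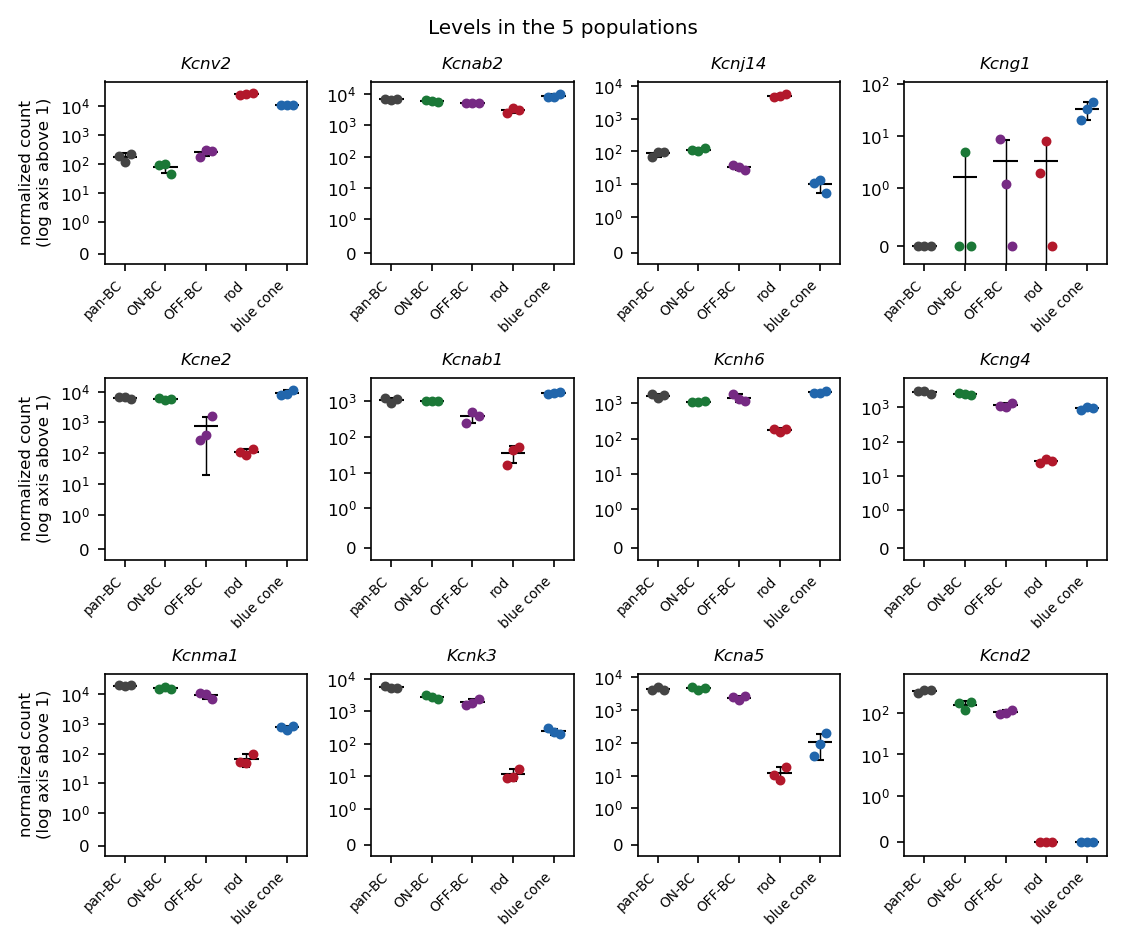
Normalized counts of 12 members in the 5 populations, on axes that are logarithmic above 1, with libraries as points, means as lines and SD as bars (n = 3). Kcnv2 and Kcnj14 peak in rods, Kcne2, Kcnab1, Kcnh6 and Kcng4 are higher in blue cones and pan-BC than in rods, and the bottom row is highest in pan-BC or ON-BC.

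Genes known to partner potassium channels without belonging to the family were listed as well (20 genes, 16 of them tested). Against rods 13 were higher in pan-BC and 1 lower, where 43.6% of all genes were called, and against blue cones 10 were higher and 1 lower, where 36.3% were. Between ON-BC and OFF-BC 2 of the 16 were called, both higher in ON-BC, beside 6.55% of all genes. Abcc8, the sulfonylurea receptor that joins Kcnj11 in the ATP-sensitive channel, was counted at 655 ± 80.4 in pan-BC, beside 0.684 ± 0.595 in rods and 11 ± 2.43 in blue cones (SD, n = 3), and Kcnj11 was called in both comparisons too. Dpp6, the peptidase-like subunit of Kv4 channels, was counted at 2269 ± 162 in pan-BC, beside 17.0 ± 9.09 in rods and 56.9 ± 22.9 in blue cones.

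Cntnap2, which clusters Kv1 channels on axons, was 4809 ± 204 in ON-BC and 572 ± 177 in OFF-BC (log2 3.11 ± 0.33; limma adjusted p = 0.000165). Lrrc55, a BK gamma subunit, was 61.4 ± 17.1 in ON-BC and 2.23 ± 2.96 in OFF-BC (log2 4.67 ± 0.57; limma adjusted p = 0.000137), where the BK beta subunit Kcnmb4 went the other way. Adam22, a receptor for the Kv1-associated protein LGI1, was the 1 partner lower in pan-BC than in blue cones, at 516 ± 42.4 in pan-BC, 1875 ± 423 in blue cones and 60.8 ± 13.1 in rods. Dlg4, the PSD-95 scaffold, was the 1 partner lower in pan-BC when set against rods, at 889 ± 27.4 beside 2576 ± 345.

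Members that mark other cells of the retina were scarce in every population. Kcnj10, the Kir4.1 channel of Muller glia, ranged from 4.25 to 15.9 counts in pan-BC and from 5.12 to 45.4 in rods, Kcnj13, a channel of the pigment epithelium, reached 21.6 counts at most, and Kcnj8 of pericytes and Kcnk2 each stayed below 8 in all 15 libraries. No comparison called Kcnj10 or Kcnj13. Across all libraries the Muller glia markers summed to 1361 to 3816 counts, each of the 7 at a mean of at least 10 in every population, and the 4 pericyte markers to 13.2 to 113.

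Accessibility was examined in 713 ATAC-seq regions of 200 bp whose nearest transcription start site belonged to a member. They covered 90 of the 93 genes, and 353 lay in introns, 280 between genes and 80 touched an exon. A promoter region was one centred from 1000 bp before to 100 bp after a start site, and 72 were of this kind, at 58 genes. Regions of one gene are not replicates of each other. Of the 695 regions tested, 412 were more accessible in pan-BC than in rods and 40 less, beside 51.6% of all regions (40.3% higher in pan-BC and 11.2% higher in rods). Against blue cones the counts were 274 and 41, beside 35.9% of all regions (28.8% higher in pan-BC and 7.13% higher in blue cones).

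Between rods and blue cones 7 regions were higher in rods and 106 in blue cones, beside 10% of all regions (1.46% higher in rods and 8.56% higher in blue cones). Between the ON and OFF libraries 40 were higher in ON-BC and the other 16 in OFF-BC, 8.06% of the member regions beside 7.39% of all regions (4.58% with the higher value in ON-BC, 2.80% in OFF-BC), so the members' share was near that of all regions. The 56 regions were 32 without OFF-BC replicate 1, 34 without OFF-BC replicate 2, 33 without ON-BC replicate 2 and 36 with DESeq2. At the genes called higher in pan-BC than in rods, 281 of 406 tested regions were more accessible in pan-BC and 13 less, and at the 3 genes called higher in rods the numbers were 1 and 14 of 30. At the 15 genes called higher in blue cones than in rods, 47 of 152 regions were more accessible in blue cones and none in rods.

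The promoter region of Kcne2 is shown because its accessibility runs with the RNA between photoreceptors and not between ON-BC and OFF-BC. The capitals that other sequences carry mark TAATCC on either strand, the core sequence bound by CRX and OTX2, which 21.8% of all 110715 regions contain. TAATTA, a homeodomain core that 5.2% contain, was searched on the same terms, and a match to it can share bases with a TAATCC match. Neither was found in this sequence, chosen after its values were seen, which comes from the RefSeq genome GRCm38.p6, is given on the strand of the gene and leaves out exon bases.
Kcne2, chr16:92292236-92292388, plus strand: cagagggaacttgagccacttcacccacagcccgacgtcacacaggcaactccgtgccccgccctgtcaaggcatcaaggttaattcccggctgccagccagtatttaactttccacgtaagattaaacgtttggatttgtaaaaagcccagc

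The Kcnv2 region, chr19:27322401-27322600, is centred 118 bp before the start of the curated RefSeq transcript and lies within the first exon of a longer predicted transcript, with which the gene's span given above begins. Its normalized count was 537 and 524 in rods, beside 251 and 315 in blue cones and 293 and 246 in the green cone libraries. The bipolar libraries had 34.4 and 45.6 (pan-BC), 20.9 and 11.7 (ON-BC) and 141 and 98.3 (OFF-BC). It was thus most accessible in rods, and OFF-BC stood above ON-BC by 2.83 ± 0.27 on the log2 scale (limma adjusted p = 0.000309). It is 1 of only 2 promoter regions of members called between ON-BC and OFF-BC (1.27% of all promoter regions were called), the other being at Kcnn3. The RNA of Kcnv2 was 248 ± 70.2 in OFF-BC and 76.0 ± 26.8 in the ON-BC libraries (SD, n = 3) without a call (limma adjusted p = 0.102).

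The Kcnj14 promoter region was counted at 498 and 481 in rods, beside 28.5 and 20.2 in blue cones and 128 and 93.0 in the green cone libraries. Rods exceeded blue cones by 4.29 ± 0.40 on the log2 scale (limma adjusted p = 9.66e-06), in the direction of the RNA. A second region 1326 bp after the start site, in an intron, was counted at 364 and 366 in rods and 0 and 1.45 in blue cones (log2 7.87 ± 0.63; limma adjusted p = 3.76e-07).

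The Kcne2 promoter region was nearly closed in rods, at 4.67 and 5.42, and open in blue cones at 166 and 142 (log2 -4.68 ± 0.26; limma adjusted p = 1.57e-08). The pan-BC libraries had 76.0 and 71.3 counts, the ON-BC libraries 73.2 and 64.4, and the OFF-BC libraries 92.9 and 91.5. OFF-BC libraries were the highest of the bipolar cells here (log2 ON-BC minus OFF-BC -0.42 ± 0.26, not called), while the RNA of Kcne2 was lowest in them.

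**Figure D4:**
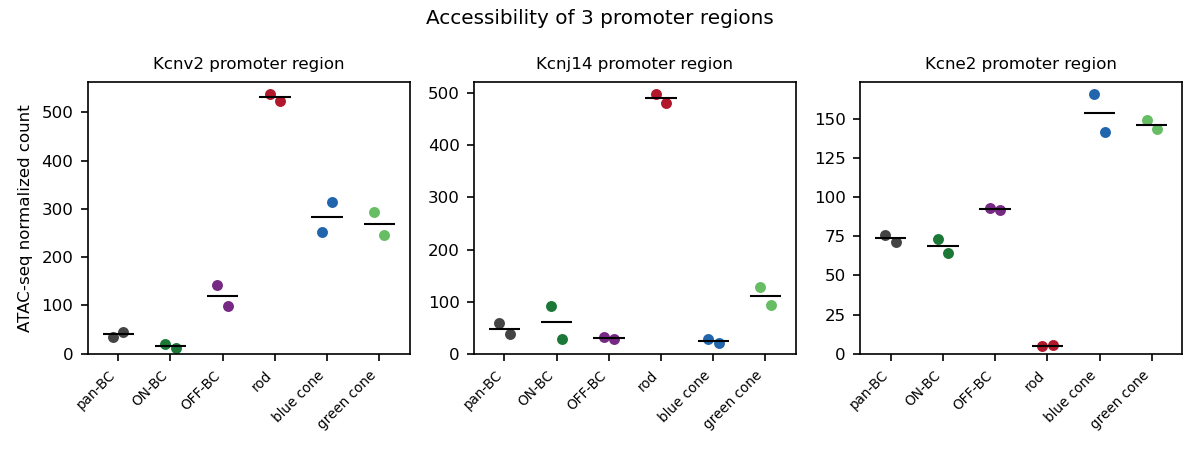
Normalized ATAC-seq counts of the promoter regions of Kcnv2, Kcnj14 and Kcne2 in 6 populations, with the 2 libraries of each as points and their mean as a line. Rods are highest at Kcnv2 and Kcnj14 and lowest at Kcne2, and OFF-BC is above ON-BC at Kcnv2.

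Kcnma1, the most abundant member of pan-BC by count, was picked for its regions after their values were seen. Of its 31 regions, 26 were more accessible in pan-BC than in rods and 0 less, 22 were more accessible in blue cones than in rods and 0 less, and 5 were more accessible in pan-BC than in blue cones and 2 less. The RNA of blue cones was 757 ± 111 counts, beside 19454 ± 710.5 in pan-BC and 65.7 ± 29.4 in rods (SD, n = 3). Kcnd2, which had no read in either photoreceptor type, had all 12 of its regions more accessible in pan-BC than in rods and all 12 more accessible in pan-BC than in blue cones. One of them, 550920 bp before its start site, was counted at 96.8 and 114 in pan-BC, with 0 and 0.678 in rods and 0 in both blue cone libraries.

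The distal region of Kcnab1 with the widest gap between photoreceptors lies in an intron 45589 bp from the start site. It was counted at 180 and 160.4 in blue cones, beside 7.79 and 6.78 in rods, and 120 and 162 in pan-BC. Rods were lowest, as for the RNA. At Kcna5 a region 6304 bp upstream was counted at 193 and 161 in pan-BC, beside 1.56 and 0 in rods and 2.59 and 0 in blue cones.

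For the 10 members called between ON-BC and OFF-BC in RNA, the called regions were counted in each direction. At the 7 genes higher in OFF-BC, 8 of 60 regions were more accessible in ON-BC, 5 of them at Kcnip4, and 1 in OFF-BC, where calls over all regions also leaned to ON-BC (4.58% beside 2.80%). At the 3 genes higher in ON-BC, 2 of 21 were more accessible in ON-BC, with 1 in OFF-BC. None of their promoter regions was called. The region with the lowest adjusted p at each of the 6 genes that had a called region is shown on the plus strand, with TAATCC or its reverse complement in capitals.
Kcnip4, chr5:48583285-48583484, plus strand: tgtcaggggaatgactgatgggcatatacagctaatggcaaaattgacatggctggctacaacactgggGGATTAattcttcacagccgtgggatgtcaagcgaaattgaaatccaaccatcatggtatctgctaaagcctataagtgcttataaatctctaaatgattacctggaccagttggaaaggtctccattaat
Kcnip2, chr19:45823144-45823343, plus strand: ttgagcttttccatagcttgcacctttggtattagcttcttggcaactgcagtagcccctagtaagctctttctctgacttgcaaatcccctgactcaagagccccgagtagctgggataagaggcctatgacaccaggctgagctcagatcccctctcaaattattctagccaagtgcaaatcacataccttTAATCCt
Kcnt2, chr1:140385252-140385451, plus strand: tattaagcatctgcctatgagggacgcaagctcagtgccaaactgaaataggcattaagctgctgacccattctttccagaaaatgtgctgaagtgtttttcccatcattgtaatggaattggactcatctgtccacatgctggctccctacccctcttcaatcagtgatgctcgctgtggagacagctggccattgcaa
Kcnh8, chr17:52617745-52617944, plus strand: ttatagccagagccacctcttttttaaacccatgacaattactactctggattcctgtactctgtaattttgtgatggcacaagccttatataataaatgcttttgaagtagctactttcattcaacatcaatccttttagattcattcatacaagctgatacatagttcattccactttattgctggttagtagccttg
Kcnc2, chr10:112485378-112485577, plus strand: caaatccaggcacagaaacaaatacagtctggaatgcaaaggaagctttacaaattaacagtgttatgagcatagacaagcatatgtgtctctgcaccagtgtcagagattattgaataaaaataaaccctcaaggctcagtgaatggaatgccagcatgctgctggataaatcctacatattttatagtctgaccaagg
Kcnf1, chr12:17202881-17203080, plus strand: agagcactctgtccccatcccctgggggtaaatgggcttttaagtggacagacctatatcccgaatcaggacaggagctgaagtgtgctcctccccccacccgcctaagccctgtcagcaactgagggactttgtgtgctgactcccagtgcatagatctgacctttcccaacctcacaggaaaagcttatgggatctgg

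The Kcnip4 region, in an intron of the gene 16297 bp from the nearest start site, had 106 and 105 counts in ON-BC, 60.8 and 64.4 in pan-BC and 0 in both OFF-BC libraries (limma adjusted p = 0.000126), although Kcnip4 RNA was higher in OFF-BC. In all, 5 of 28 Kcnip4 regions were more accessible in ON-BC, with 1 in OFF-BC, and their median log2 difference was 1.45. The printed region holds 1 TAATCC match.

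The Kcnip2 region, with 1 match as well, lies 7181 bp upstream in an intron of the neighbouring gene Armh3. It was counted at 2.99 and 0 in ON-BC but 37.7 and 31.1 in OFF-BC, with 46.6 and 84.6 in blue cones beside 74.5 and 88.7 in the green cone libraries (log2 ON-BC minus OFF-BC -4.14 ± 0.61; limma adjusted p = 0.00225), against the direction of the Kcnip2 RNA. At Kcnt2 the region and the RNA ran the same way. The region, in an intron 139634 bp from the start site, was counted at 95.6 and 67.3 in ON-BC and at 5.39 and 0.974 in OFF-BC (log2 4.52 ± 0.82; limma adjusted p = 0.00719), and a second Kcnt2 region was called in the same direction.

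The Kcnh8 region, in an intron 15136 bp from the start site, was counted at 32.9 and 58.6 in ON-BC and at 4.04 and 1.95 in OFF-BC (log2 3.54 ± 0.73; limma adjusted p = 0.0243), the opposite of its RNA. Those of Kcnc2, 214205 bp downstream of its start between genes (35.8 and 86.4 in ON-BC but 5.39 and 1.95 in OFF-BC libraries; limma adjusted p = 0.0336), and of Kcnf1, 26093 bp upstream (47.8 and 39.5 in ON-BC but 5.39 and 1.95 in OFF-BC libraries; limma adjusted p = 0.0245), were more accessible in ON-BC too. The regions of Kcne2, Kcnh7, Kcnj2 and Kcnmb4 gave no call, in a test that called 14 of 100 simulated regions changed 4-fold.

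**Figure D5:**
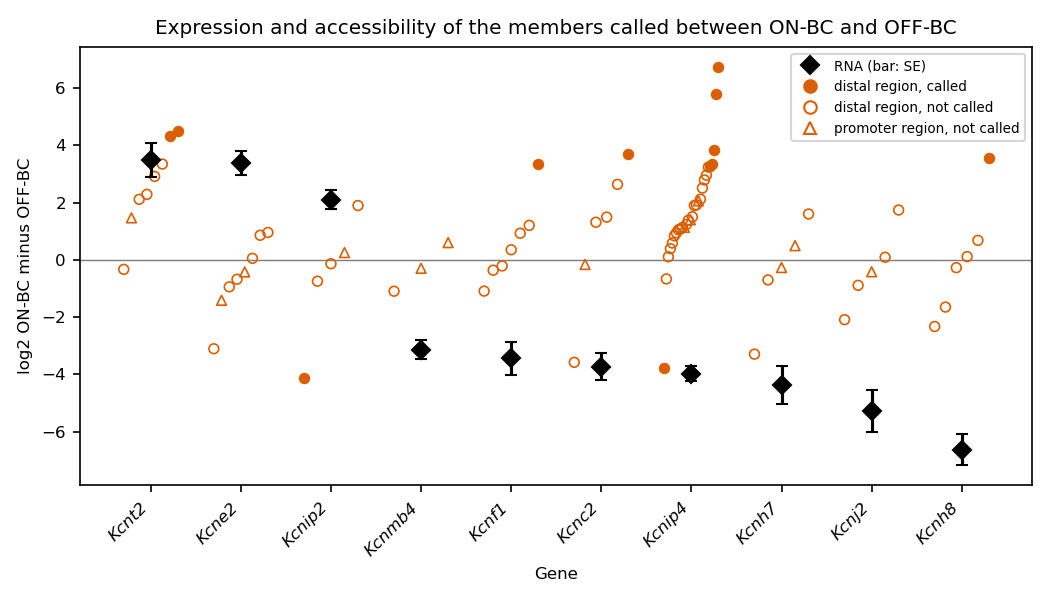
Log2 difference between ON-BC and OFF-BC for the RNA of the 10 called members (diamonds, with SE) and for each of their ATAC-seq regions (circles distal, triangles promoter, filled where called). At Kcnip4 the diamond lies at -3.97 and 5 filled circles lie above 0, while at Kcnt2 the diamond and both filled circles are above 0.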

How the data were processed

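RNA-seq reads had been aligned to mm10 (GRCm38) with STAR and counted on RefSeq genes with HTSeq, and ATAC-seq reads aligned with Bowtie2 and counted in 200 bp regions made from peaks, per the submitters' notes and methods. The deposited signal values in both tables are these counts after the authors divided each library by 1 size factor. They are whole multiples of 1 step per library, from which reads were recovered (100.0% of values above 0 whole within 0.01). The planned test for normalized tables was limma 3.58.1 (treat, log2 difference of 1, trended prior), with a test on counts only if they were raw. Benjamini-Hochberg adjustment ran over all 14024 genes or 108448 regions left by edgeR's filterByExpr. The fit used log2 of the value plus 1 over all libraries of an assay. Fold changes on this scale understate those of low genes. edgeR 4.0.16 and DESeq2 1.42.0 on recovered reads were alternatives. In libraries simulated for ON-BC and OFF-BC over all 14024 genes, 71 of 100 genes changed 4-fold and 98 of 100 changed 16-fold were called, but over 108448 ATAC-seq regions only 14 and 75 of 100, so a region without a call may still differ. Counting intervals and floors cover counting error only.

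Regions were assigned to the nearest RefSeq start site (GRCm38.p6). The peak lists were not used. Named were all members called between ON-BC and OFF-BC, the 6 widest calls per direction elsewhere, the leading member of each family, 10 textbook genes and called partners. Members, families, partners and markers were chosen with earlier results of these data known. The 4 symbols Kcnd3os, Kcne1l, Kcnmb4os1 and Kcnq1ot1 are not members under the naming rule. Some genes and 1 sequence that these rules would name are not reported here.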

Additional observations from a re-analysis of the deposited data

How the results depend on the processing

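The number of members called stayed within 1.5 times its value in most settings. The exceptions for RNA were ON-BC against OFF-BC, with 10 members called, where edgeR's test of the same hypothesis called 17 and its F test with a 2-fold minimum 23, and rod against blue cone, with 17, where a fit of the 2 populations alone called 11 and the edgeR F test 28. For regions, ON-BC against OFF-BC (56 called) gave 36 with DESeq2, 92 with edgeR and 34 within 100 kb of a start site, and rod against blue cone (113) gave 187 with edgeR, 66 with 5 added before the logarithm and 70 within 100 kb, the last because fewer regions enter.

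Leaving out 1 library at a time gave 9 to 11, 45 to 46, 39 to 41 and 14 to 20 members for ON-BC against OFF-BC, pan-BC against rod, pan-BC against blue cone and rod against blue cone, and 32 to 41, 402 to 417, 235 to 276 and 78 to 88 regions, where the lone ATAC-seq library left is assumed to vary like the others. The ON-BC to OFF-BC region count fell to 32 without OFF-BC replicate 1, 34 without OFF-BC replicate 2 and 33 without ON-BC replicate 2. None of the called members named changed sign in any of these settings.

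Scaling to library totals moved the median log2 difference of all genes from 0.21 to 0.55 for pan-BC against rod and from 0.16 to 0.44 for pan-BC against blue cone, and called 48 and 41 members there. ON-BC and OFF-BC libraries with the same number were of equal age, but the labels name no shared animal or sort, and the values did not show that the numbers pair them (correlations of deviations between same-numbered ON-BC and OFF-BC libraries -0.08, 0.22 and -0.06), and a fit with the replicate block called 10, 46, 39 and 18 members and 63, 450, 311 and 117 regions.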
